A study of Mus musculus with 4 samples.

Results

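The BH3-only genes encode the proteins that start the mitochondrial route of apoptosis, and they were followed here in splenic helper T cells of mice in which RIPK1 was deleted in T cells only. The members were the rows named Bcl2l11, Bad, Bid, Bbc3, Pmaip1, Bmf, Bik and Hrk, 8 of the 23234 different symbols on the 23700 rows of each table, and each of them stood on 1 row. The series holds 4 RNA sequencing libraries, 2 labelled KO (KO 1 and KO 2, genotype RIPK1-KO) and 2 labelled wild type (WT 1 and WT 2). All 4 came from spleens of C57BL/6 mice 43 weeks old, and the titles of both genotypes end in Ctrl, which no label explains. No source used here names the promoter that drove the deletion. Nor does one say whether replicate libraries were made from separate mice, so the p-values below rest on a spread between libraries that may be technical.

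Each value is an FPKM, a fragment count divided by the length of the transcript and by all fragments mapped in the library, so levels can be set beside each other between genes. The low values gave an estimated 17500000 and 19100000 fragments in KO 1 and KO 2, and 21300000 and 22100000 in WT 1 and WT 2. Ripk1, the gene the deletion targets, did not have less RNA under the KO label: it stood at 10.4 and 9.54 FPKM in KO 1 and KO 2, and at 5.61 and 5.60 FPKM in WT 1 and WT 2. This goes against the label, although an FPKM of the whole gene cannot show whether some exons are missing, and every direction below is therefore that of the libraries labelled KO. All 7 markers of helper T cells were present in each library, and their summed level was 1320 and 1262 FPKM in KO 1 and KO 2 and 822 and 1057 FPKM in WT 1 and WT 2. Most values ran higher in the libraries labelled KO: the median log2 difference of all tested rows was 0.38 as deposited, 0.01 once libraries were scaled to a trimmed mean, and -0.02 once they were quantile normalized. Changes of the tested BH3-only genes are therefore also given relative to this median. For Ripk1 the log2 change was 0.73 as deposited, 0.33 after trimmed-mean scaling and 0.28 under quantile normalization. Its limma adjusted p was 0.0262, 0.192 and 0.257 in the same order.

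BH3-only proteins carry a single short helix, the BH3 domain, with which they bind proteins of the BCL2 family. The strongest of them, BIM (Bcl2l11) and PUMA (Bbc3), bind all the survival proteins, while BAD, NOXA (Pmaip1), BIK, BMF and HRK each bind some of them. When survival proteins are occupied, BAX and BAK open the outer mitochondrial membrane and caspases follow. In T cells BIM is best known for removing self-reactive thymocytes and for ending immune responses, and BID connects death receptors, and thereby caspase-8, to mitochondria.

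Of the 8 BH3-only genes, 2 passed the test as deposited, Pmaip1 and Bik, and both were higher in the libraries labelled KO. The test was limma on log2(FPKM + 1), two-sided, with a Benjamini-Hochberg adjusted p of 0.05 over all 11074 rows that reached 1 FPKM in at least 2 libraries. Of the 8 genes 6 entered it, and Bik did so only through the libraries in which it was high. The share of all tested rows called higher was 25.6%, and 1% were called lower. As a share of those tested, 2 of 6 lay near that background, so the count is not a result about the family. The means of 7 genes were higher in the libraries labelled KO and that of Bmf was lower. In 5 genes both libraries labelled KO lay above both WT libraries, and 4 of these were among the 6 tested; of all tested rows 58.5% did the same, and of all rows above 0 in any library 41.3%. The median log2 change of the 6 tested genes was 0.73 as deposited, 0.37 after trimmed-mean scaling and 0.30 under quantile normalization. After either scaling 0 of the 6 were called. Of all tested rows 4.52% were then called higher and 3.75% lower under the trimmed mean, and 1.62% higher and 0.695% lower under quantile normalization. At an unadjusted p under 0.05 in limma, Pmaip1 and Bik stood below the threshold after both scalings, and Bik is again only a description. Many rows did the same: of all 11074 tested rows, 1972 were higher and 1919 lower at that threshold under the trimmed mean. Under quantile normalization they were 1795 higher and 1947 lower. With 2 libraries on each side, the smallest two-sided p of an exact permutation test is 0.333. In bulk RNA, fewer cells that express a gene and less RNA per cell cannot be told apart.

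**Figure D1:**
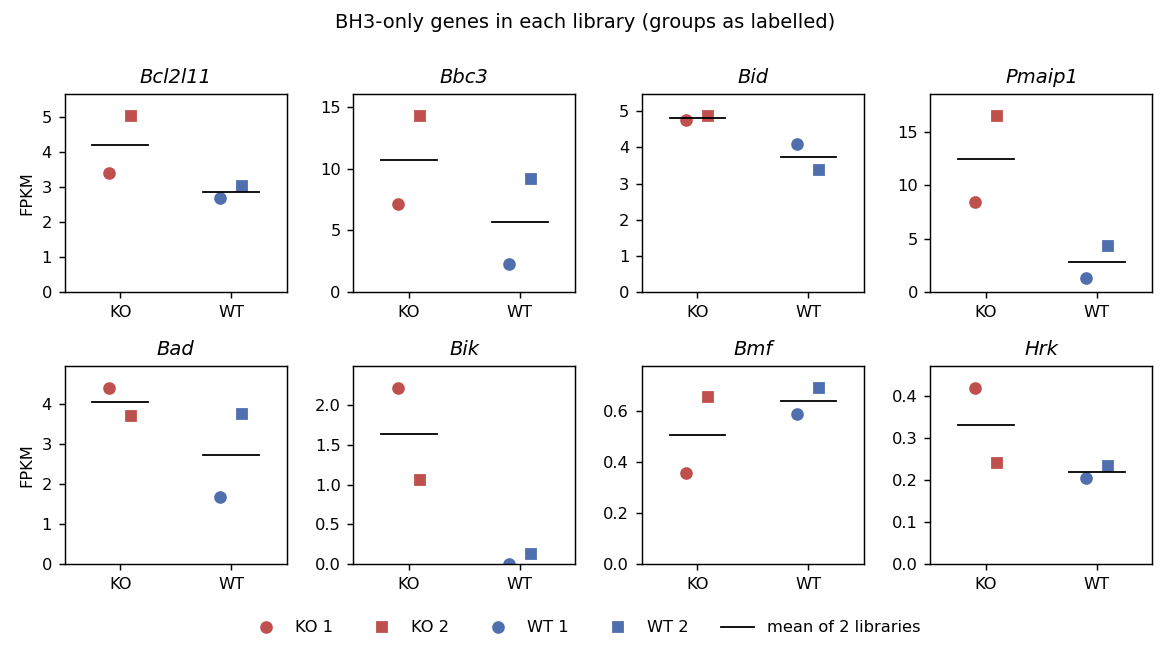
FPKM of each BH3-only gene (vertical axes, from 0 and scaled to each gene) in the libraries labelled KO and WT; circles are replicate 1, squares replicate 2, and bars are means of 2 libraries, left out where a library is listed at 0. Pmaip1 and Bik lie highest above their WT libraries, while the groups of Bbc3, Bad and Bmf overlap.

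Pmaip1 encodes NOXA, a small protein that binds MCL1 and A1 and speeds the loss of MCL1, and it is a known target of p53. It stood at 8.47 and 16.5 FPKM in KO 1 and KO 2, against 1.31 and 4.36 FPKM in WT 1 and WT 2. Both libraries labelled KO lay above both WT libraries, and within each group replicate 2 was well above replicate 1. The means were 12.5 ± 5.67 FPKM in the libraries labelled KO and 2.84 ± 2.16 FPKM in the WT libraries (SD, n = 2 and 2), a ratio of 4.40. The log2 change was 1.87 ± 0.44 (SE, limma adjusted p = 0.0266), which is 1.49 above the median tested row. It was 1.51 after trimmed-mean scaling (limma adjusted p = 0.0725) and 1.47 under quantile normalization (limma adjusted p = 0.0986), so the size stayed and the call did not. Where 1 library is left out, the group then holds a single library, which is assumed to vary like the other group, so these p-values are only a rough guide. Without WT 1, the library in which the gene was lowest, the log2 change was 1.26 (limma adjusted p = 0.147). Pmaip1 was the most abundant BH3-only gene in both libraries labelled KO, while Bid was the most abundant in WT 1 and Bbc3 in WT 2. It made up 27.1% and 35.6% of the summed FPKM of the 8 genes in KO 1 and KO 2, and 10.2% and 17.7% in WT 1 and WT 2.

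Ratios between genes of 1 library do not change when all its values are multiplied by 1 factor, as in trimmed-mean scaling, but quantile normalization can change them. Set against Mcl1, the survival gene whose protein NOXA binds, Pmaip1 stood at 8.01% and 13.3% of its FPKM in KO 1 and KO 2, and at 1.68% and 3.60% in WT 1 and WT 2. The groups did not overlap in this ratio. The same ratio for Bbc3 was 6.78% and 11.5% in KO 1 and KO 2, and 2.89% and 7.53% in WT 1 and WT 2, and there they did. Bcl2l11 stood at 20.6% and 27.6% of the FPKM of Bcl2 in KO 1 and KO 2, and at 23.6% and 20.6% in WT 1 and WT 2, again with overlap. The 8 BH3-only genes together came to 31.2 and 46.3 FPKM in KO 1 and KO 2, and to 12.8 and 24.7 FPKM in WT 1 and WT 2. The 8 survival genes came to 239 and 249 FPKM in KO 1 and KO 2, and to 127 and 212 FPKM in WT 1 and WT 2. The BH3-only sum was thus 13.0% and 18.6% of the survival sum in KO 1 and KO 2, and 10.1% and 11.7% in WT 1 and WT 2. That sum includes Pmaip1, which made up 27.1% and 35.6% of it in KO 1 and KO 2. In WT 1 and WT 2 the share of Pmaip1 was 10.2% and 17.7%, so the ratio of the sums does not show a shift of the other members. A ratio shows unequal change and does not show which of its genes changed.

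**Figure D2:**
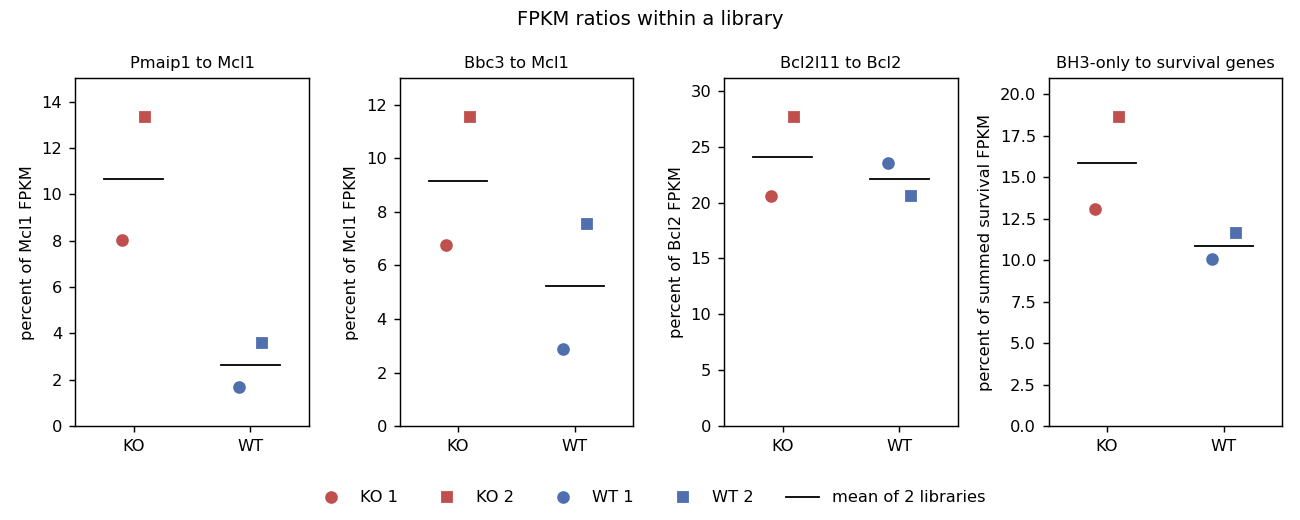
FPKM ratios within each library, in percent (vertical axes, from 0), for Pmaip1 and Bbc3 to Mcl1, Bcl2l11 to Bcl2, and the 8 BH3-only genes to 8 survival genes; circles are replicate 1, squares replicate 2, and bars are means of 2 libraries. Pmaip1 to Mcl1 was 8.01% and 13.3% in KO 1 and KO 2, above the 1.68% and 3.60% of WT 1 and WT 2, while Bcl2l11 to Bcl2 overlapped.

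Bik encodes a BH3-only protein found mainly at the endoplasmic reticulum. It stood at 2.22 and 1.05 FPKM in KO 1 and KO 2, against a listed 0 in WT 1 and 0.122 FPKM in WT 2. Both libraries labelled KO lay above both WT libraries. For its longest annotated transcript of 1335 nt, these levels correspond to an estimated 44.2 and 22.9 fragments in KO 1 and KO 2 and 3.06 in WT 2. A value of 0 in WT 1 allows up to 0.124 FPKM, that of 3 fragments, and the limit covers counting error only. The log2 change was 1.28 ± 0.27 (SE, limma adjusted p = 0.0212), which is 0.90 above the median tested row and depends on the pseudocount. Bik entered the test only through the libraries in which it was high, so this p and call are a description and no support for a difference; with no filter on low values the adjusted p was 0.0923 (limma). The log2 change was 1.14 after trimmed-mean scaling (limma adjusted p = 0.051) and 0.96 under quantile normalization (limma adjusted p = 0.0838). Leaving out 1 library, which again leaves a group of 1, gave 0.96 without KO 1 (limma adjusted p = 0.0226), 1.60 without KO 2 (limma adjusted p = 0.00015), 1.20 without WT 1 (limma adjusted p = 0.131) and 1.36 without WT 2 (limma adjusted p = 0.0691).

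The tested markers of red cell precursors were also higher in the libraries labelled KO. Hbb-b2, a beta globin, stood at 123 and 98.4 FPKM in KO 1 and KO 2, against 2.46 and 32.3 FPKM in WT 1 and WT 2. Slc4a1, the anion exchanger of the red cell membrane, stood at 3.24 and 2.24 FPKM in KO 1 and KO 2, against a listed 0 and 0.218 FPKM in WT 1 and WT 2. As in Bik, KO 1 was the highest library and WT 1 was listed at 0. Alas2, the erythroid enzyme of haem synthesis, was highest in KO 2 instead. The 9 rows of the 7 erythroid markers summed to 395 and 321 FPKM in KO 1 and KO 2, and to 6.33 and 99.2 FPKM in WT 1 and WT 2; 6 of the 9 rows were tested and all 6 were called higher (limma adjusted p = 0.0127 to 0.0479), 3 of them entering only through the libraries labelled KO. Alas2 and Slc4a1 were among the rows listed at 0 in WT 1, and 0 of the 9 rows were at 0 in the other libraries. The 7 B cell markers summed to 14.8 and 14.0 FPKM in KO 1 and KO 2, and to 6.62 and 6.77 FPKM in WT 1 and WT 2. Of the 3 tested, 2 were called higher, 1 of them entering only through the libraries labelled KO. Cd79a overlapped between the groups and did not pass (limma adjusted p = 0.509). Blk was among those at 0 in WT 1. Pax5 was at 0 in WT 2 but highest in WT 1, at 0.417 FPKM against 0.113 and 0.103 FPKM in KO 1 and KO 2. The 10 myeloid markers found summed to 22.0 and 52.8 FPKM in KO 1 and KO 2, and to 6.26 and 42.5 FPKM in WT 1 and WT 2, with 1 of 4 tested called higher. Among all tested rows 25.6% were called higher, which is the background for these counts of markers. The 4 plasma cell markers found summed to 11.99 and 13.8 FPKM in KO 1 and KO 2, and to 5.66 and 7.02 FPKM in WT 1 and WT 2. Against the same background, 1 of the 2 tested was called higher, and it entered only through the libraries labelled KO. The sums of dendritic cell and NK cell markers were lower in both libraries labelled KO than in both WT libraries. Dendritic cell markers summed to 24.8 and 25.7 FPKM in KO 1 and KO 2, and to 34.2 and 27.5 FPKM in WT 1 and WT 2. For NK cell markers the sums were 2.57 and 3.27 FPKM in KO 1 and KO 2, and 4.48 and 4.91 FPKM in WT 1 and WT 2. Those of CD8 T cell markers overlapped, at 11.1 and 11.6 FPKM in KO 1 and KO 2 and 11.3 and 10.7 FPKM in WT 1 and WT 2. Slc4a1, Alas2, Blk and Pax5 were named after their values were seen. The part of these cells in the levels of Bik, Pmaip1 and the other BH3-only genes was not tested.

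**Figure D3:**
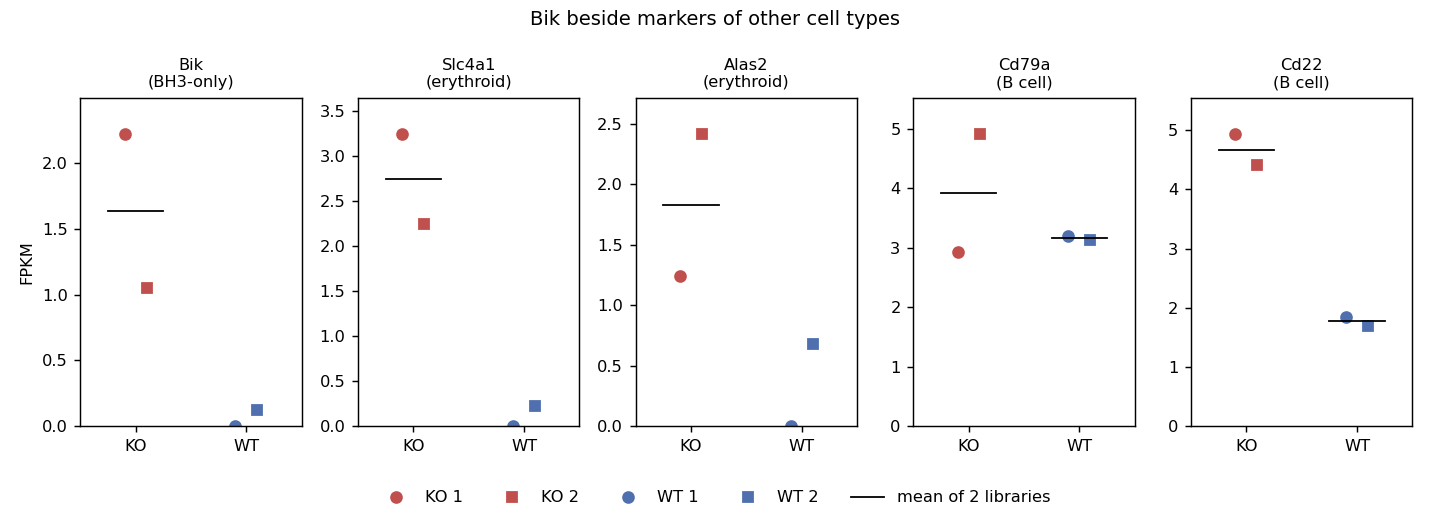
FPKM of Bik, of the erythroid markers Slc4a1 and Alas2 and of the B cell markers Cd79a and Cd22 (vertical axes, from 0 and scaled to each gene) in the libraries labelled KO and WT; circles are replicate 1, squares replicate 2, and bars are means of 2 libraries, left out where a library is listed at 0. Bik and Slc4a1 were highest in KO 1 and listed at 0 in WT 1, and Cd79a overlapped between the groups.

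Bcl2l11 encodes BIM, the BH3-only protein on which the death of T cells deprived of cytokines mainly depends. It stood at 3.40 and 5.03 FPKM in KO 1 and KO 2, against 2.69 and 3.03 FPKM in WT 1 and WT 2. The groups did not overlap, but KO 1 lay closer to WT 2 than to KO 2. The log2 change of 0.42 ± 0.21 did not pass (SE, limma adjusted p = 0.175) and lay 0.04 above the median tested row. It was 0.07 after trimmed-mean scaling and -0.06 under quantile normalization, so its sign depended on the scaling.

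Bbc3 encodes PUMA, which p53 and FOXO transcription factors induce. It stood at 7.16 and 14.3 FPKM in KO 1 and KO 2, against 2.26 and 9.13 FPKM in WT 1 and WT 2. KO 1 lay below WT 2, so the groups overlapped. The means were 10.7 ± 5.02 FPKM in the libraries labelled KO and 5.70 ± 4.86 FPKM in the WT libraries (SD, n = 2 and 2). The log2 change of 0.96 ± 0.54 did not pass (SE, limma adjusted p = 0.21) and lay 0.58 above the median tested row. It was 0.58 after trimmed-mean scaling and 0.54 under quantile normalization. Its size depended on single libraries: it was 1.41 without KO 1 (limma adjusted p = 0.00363) and 0.14 without WT 1 (limma adjusted p = 0.842), each with a group of 1 library that was assumed to vary like the other group.

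The promoters of Bcl2l11 and Bbc3 are shown because 1 window of each held the FOXO motif GTAAACA on either strand (TGTTTAC on the other). It is a motif of factors known to induce both genes, and neither of them passed the test. Windows of 6 members were searched (Bcl2l11, Bad, Bid, Bbc3, Bmf and Hrk), and no other member held it. Entries on 1 chromosome were set aside beforehand, and no window of Pmaip1 or Bik was searched. Windows run from 250 bases before to 50 after an annotated start, from RefSeq on GRCm38.p6, and are given 5′ to 3′ on the + strand with the motif in capitals. The motif stood in 2 of the 12 windows of the 6 members searched, and in 3.65% of all 32851 windows. Counted by gene, it stood in 2 of those 6 members and in 4.05% of all genes (1095 of 27025). Its first base lay at -227 from 1 of the 2 annotated starts of Bcl2l11 and at -167 from 1 of the 3 of Bbc3, and the windows of their other starts did not hold it. A match is a description of these letters and not of binding. The window shown for Bcl2l11 is chr2:128125788-128126087 and that for Bbc3 chr7:16310011-16310310.
Bcl2l11: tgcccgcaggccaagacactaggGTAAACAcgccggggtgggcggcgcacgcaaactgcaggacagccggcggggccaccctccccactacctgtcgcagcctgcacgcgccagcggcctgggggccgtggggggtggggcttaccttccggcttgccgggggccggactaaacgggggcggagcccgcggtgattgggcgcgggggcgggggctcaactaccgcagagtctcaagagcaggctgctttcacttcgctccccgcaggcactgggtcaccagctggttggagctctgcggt
Bbc3: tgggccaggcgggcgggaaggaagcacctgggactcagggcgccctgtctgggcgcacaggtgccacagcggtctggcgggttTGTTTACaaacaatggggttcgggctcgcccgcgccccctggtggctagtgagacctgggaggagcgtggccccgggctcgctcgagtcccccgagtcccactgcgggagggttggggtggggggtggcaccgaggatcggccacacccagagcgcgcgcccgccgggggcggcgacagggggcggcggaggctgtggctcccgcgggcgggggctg

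Bid encodes the protein that caspase-8 cuts to its active form when a death receptor is engaged. It stood at 4.77 and 4.87 FPKM in KO 1 and KO 2, against 4.08 and 3.37 FPKM in WT 1 and WT 2. The groups did not overlap, yet the log2 change of 0.30 ± 0.18 did not pass (SE, limma adjusted p = 0.223) and stood at -0.07 relative to the median tested row. It was -0.06 after trimmed-mean scaling and -0.17 under quantile normalization, so its sign depended on the scaling too. Its annotated exons share 628 bases with the opposite strand gene Bcl2l13, and since no source states that counting used strand, reads of that stretch cannot be told apart.

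Bad encodes a BH3-only protein that growth factor signals hold inactive through phosphorylation by AKT and binding to 14-3-3 proteins. It stood at 4.40 and 3.70 FPKM in KO 1 and KO 2, against 1.68 and 3.75 FPKM in WT 1 and WT 2. WT 1 was low and the other 3 libraries were alike, so the groups overlapped. The log2 change was 0.50 ± 0.29 as deposited (SE, limma adjusted p = 0.22), which is 0.12 above the median tested row. It was 0.16 with trimmed-mean scaling and 0.07 with quantile normalization. The exons of Bad share 524 bases with the opposite strand gene Gpr137, with the same limit on its value.

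Bmf and Hrk were under 1 FPKM in every library and were not tested. Bmf, whose protein is tethered to the cytoskeleton through a dynein light chain, stood at 0.358 and 0.657 FPKM in KO 1 and KO 2, against 0.589 and 0.692 FPKM in WT 1 and WT 2, and the groups overlapped. Hrk, best known from dying neurons, stood at 0.418 and 0.240 FPKM in KO 1 and KO 2, against 0.204 and 0.234 FPKM in WT 1 and WT 2. Its groups did not overlap, but KO 2 and WT 2 differed by less than KO 2 and KO 1. The longest transcripts of both genes are long (4642 nt for Bmf and 5382 nt for Hrk), so the values rest on an estimated 27.9 and 55.8 fragments of Bmf in KO 1 and KO 2 and 55.7 and 68.0 in WT 1 and WT 2. For Hrk the estimates were 38.0 and 23.8 fragments in KO 1 and KO 2 and 22.6 and 26.8 in WT 1 and WT 2.

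The order of the genes by level differed between libraries. Pmaip1 and Bbc3 led in KO 1, KO 2 and WT 2, and in WT 1 Bid, Bcl2l11 and Bbc3 led. Together Pmaip1 and Bbc3 made up 50.1% and 66.4% of the BH3-only sum in KO 1 and KO 2, and 27.9% and 54.6% in WT 1 and WT 2, so these shares overlapped between the groups. Of the other members, Bid averaged 4.82 ± 0.07 FPKM in the libraries labelled KO and 3.72 ± 0.51 FPKM in the WT libraries (SD, n = 2 and 2). Bcl2l11 averaged 4.21 ± 1.16 FPKM in the libraries labelled KO and 2.86 ± 0.24 FPKM in the WT libraries, and Bad 4.05 ± 0.49 and 2.72 ± 1.47 FPKM in the same groups. In the libraries labelled KO both values of Bid lay above both of Bad and below both of Bbc3, while Pmaip1 overlapped Bbc3, and Bcl2l11 overlapped both Bid and Bad. In the WT libraries both values of Bid lay above both of Bcl2l11, and the values of Bbc3, Pmaip1 and Bad spread across those of Bcl2l11. Bik stood above Bmf and Hrk in both libraries labelled KO and below both in the WT libraries.

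**Figure D4:**
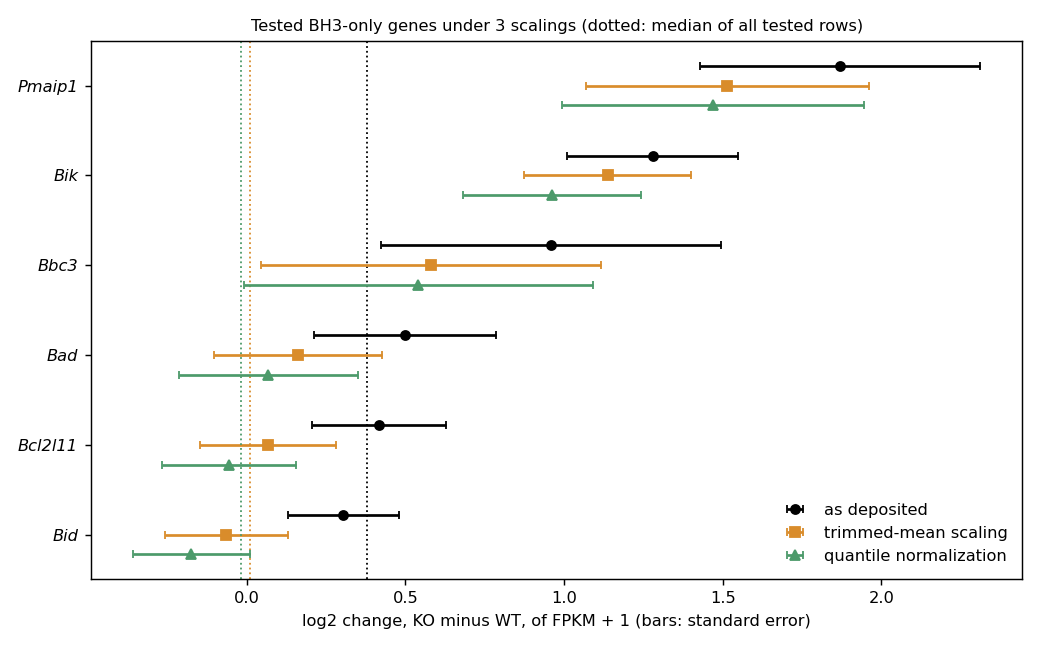
Log2 change, KO minus WT, of FPKM + 1 (horizontal axis) of the 6 tested BH3-only genes as deposited, scaled to a trimmed mean, and quantile normalized; bars are standard errors from limma and dotted lines the medians of all 11074 tested rows. Pmaip1, Bik, Bbc3 and Bad lay to the right of the median under all 3 scalings, while Bcl2l11 and Bid had values on both sides of 0.

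The survival proteins and effectors to which BH3-only proteins bind were compared in the same test. Of 12 genes 10 were tested and 4 rose as deposited, against the background of 25.6% of all tested rows, with a median log2 change of 0.75 against 0.38 for all tested rows. After trimmed-mean scaling 1 rose, against 4.52% of all tested rows, with a list median of 0.47 against 0.01. Under quantile normalization 0 rose, against 1.62%, with a list median of 0.33 against -0.02. Bak1, which forms pores in the mitochondrial membrane, stood at 20.1 and 13.8 FPKM in KO 1 and KO 2, against 5.67 and 5.82 FPKM in WT 1 and WT 2 (limma adjusted p = 0.0139, and 0.0439 after trimmed-mean scaling). Bcl2l1, which encodes the survival protein BCL-XL, stood at 5.99 and 4.25 FPKM in KO 1 and KO 2, against 2.26 and 2.77 FPKM in WT 1 and WT 2 (limma adjusted p = 0.0353). Bcl2l2 (BCL-W) averaged 1.49 ± 0.06 FPKM in the libraries labelled KO and 0.519 ± 0.088 FPKM in the WT libraries (SD, n = 2 and 2; limma adjusted p = 0.0379), and it entered the test only through the libraries labelled KO. The fourth, Bcl2a1a, which encodes the NOXA target A1, averaged 18.1 ± 1.68 FPKM in the libraries labelled KO and 9.19 ± 3.99 FPKM in the WT libraries (SD, n = 2 and 2; limma adjusted p = 0.0497); its near-identical copies Bcl2a1b and Bcl2a1d can share its reads, so its value is uncertain. Mcl1, at 106 and 124 FPKM in KO 1 and KO 2 and 78.0 and 121 FPKM in WT 1 and WT 2, did not pass (limma adjusted p = 0.551).

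Of 14 transcription factors known to act on BH3-only genes 13 were tested and 2 rose, against 25.6% of all tested rows, with a median log2 change of 0.34 against 0.38. After trimmed-mean scaling 0 rose and 1 was called lower, against 4.52% and 3.75% of all tested rows. The list median was then -0.09, against 0.01. Under quantile normalization 0 were called, against 1.62% higher and 0.695% lower, with a list median of 0.05 against -0.02. Foxo3, which induces Bcl2l11 and Bbc3, stood at 4.37 and 5.87 FPKM in KO 1 and KO 2, against 1.82 and 2.47 FPKM in WT 1 and WT 2 (limma adjusted p = 0.0225, 0.0916 after trimmed-mean scaling and 0.154 under quantile normalization). Cebpa, a partner of CHOP on Bcl2l11 and a gene of myeloid cells, stood at 7.03 and 10.3 FPKM in KO 1 and KO 2, against 0.153 and 2.83 FPKM in WT 1 and WT 2 (limma adjusted p = 0.027, 0.0714 after trimmed-mean scaling and 0.0916 under quantile normalization). Trp53, which encodes the p53 that induces Pmaip1 and Bbc3, was at 24.1 and 20.6 FPKM in KO 1 and KO 2 and 18.9 and 19.4 FPKM in WT 1 and WT 2 and did not pass (limma adjusted p = 0.432). Ddit3, which encodes CHOP, did not pass as deposited (limma adjusted p = 0.125) and was called lower after trimmed-mean scaling (limma adjusted p = 0.0371). Mcl1, Trp53, Ddit3 and, in the next list, Dynll1 were named after their values were seen.

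Of 31 binding partners and modifiers of BH3-only proteins 30 were tested and 12 rose, against 25.6% of all tested rows, with a median log2 change of 0.62 against 0.38. With trimmed-mean scaling 2 were called higher and 1 lower, against 4.52% and 3.75% of all tested rows, with a list median of 0.19. With quantile normalization 1 was called higher, against 1.62%, with a list median of 0.28. Huwe1, a ubiquitin ligase that marks MCL1 for degradation, averaged 21.3 ± 0.05 FPKM in the libraries labelled KO and 8.16 ± 0.91 FPKM in the WT libraries (SD, n = 2 and 2). Its limma adjusted p was 0.0129 as deposited, 0.0469 after trimmed-mean scaling and 0.0608 under quantile normalization. Akt1, a kinase that phosphorylates BAD, averaged 33.1 ± 2.15 FPKM in the libraries labelled KO and 16.7 ± 1.60 FPKM in the WT libraries (SD, n = 2 and 2). Its limma adjusted p was 0.0206 as deposited, 0.0695 after trimmed-mean scaling and 0.0678 under quantile normalization. Gzmb, which encodes granzyme B, stood at 11.4 and 2.66 FPKM in KO 1 and KO 2, against 0.461 and 0.186 FPKM in WT 1 and WT 2. Its limma adjusted p was 0.0226 as deposited, 0.0551 after trimmed-mean scaling and 0.0815 under quantile normalization. Gzmb too entered the test only through the libraries labelled KO. Dynll1, a dynein light chain that binds BIM, was the gene called lower after trimmed-mean scaling (limma adjusted p = 0.0306), and it did not pass as deposited (limma adjusted p = 0.14). Without WT 1 none of the 3 lists held a called gene, against 9 higher (0.0813%) and 1 lower (0.00903%) among all 11074 rows; limma then gave 3054 higher and 346 lower rows with an unadjusted p under 0.05.

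**Figure D5:**
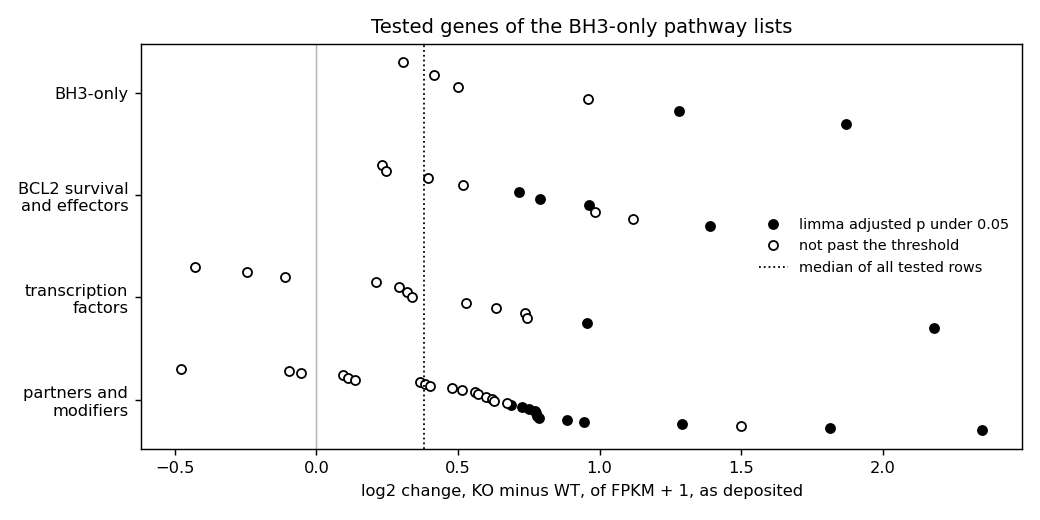
Log2 change, KO minus WT, of FPKM + 1 as deposited (horizontal axis) of every tested BH3-only gene, survival or effector gene, transcription factor, and partner or modifier; filled points passed limma at an adjusted p of 0.05, open points did not, and the dotted line is the median of all tested rows. Of the filled points 2 are BH3-only genes, 4 survival or effector genes, 2 transcription factors and 12 partners or modifiers.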

How the data were processed

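RNA of 4 libraries was measured; per the labels' protocols, libraries were made with the NEBNext Ultra RNA kit from 200 ng of total RNA. The authors deposited 1 table of FPKM per library, per the file headers. The submitters' processing notes list Bowtie 0.12.2 and mm8, without saying which program, gene models or filters gave the FPKM. From these values limma 3.58.1 (R 4.3.3, intensity trend) was run on log2(FPKM + 1) over rows with at least 1 FPKM in at least 2 libraries. This scale understates the change of low genes. Trimmed-mean scaling trimmed 30% of log ratios and 5% of mean levels at each side over the tested rows. In 10 alternatives each library was left out in turn, the replicate number was a block, pseudocounts were 0.1 and 5, the filter was dropped, or values were scaled; rows tested stayed the same except without the filter. Depth was estimated from low genes with 1 transcript, for fragments of 200 nt; 54.5% to 62.8% of these values lay within 0.05 of a whole fragment. Lengths, exon overlaps and promoters come from annotations of GRCm38, not of mm8, so no gene coordinates are given beside FPKM. The fit was tested on simulated data. Named were all 8 members, Ripk1, up to 4 called genes of each pathway list by unadjusted p, and markers by level; a few genes the rule named are not reported here. The members and lists were chosen with earlier results of these data known.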

Additional observations from a re-analysis of the deposited data

How the results depend on the processing

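As deposited, 2832 rows were called higher and 111 lower (96.2% of calls higher), with 2 members higher and 0 lower. Trimmed-mean scaling gave 501 higher and 415 lower (54.7% higher) with 0 members, quantile normalization 179 and 77 (69.9% higher) with 0 members, and no filter 3 and 0 with 0 members (4604 and 541 at an unadjusted p under 0.05 in limma). Leaving out 1 library gave 9 to 2173 higher and 1 to 132 lower in all rows, with 0 to 3 members higher; the lowest counts came without WT 1. Members called lower were 0 under all 10 alternatives. Pmaip1 passed in 6 of 10 alternatives (log2 change 1.15 to 2.48) and Bik in 5 (0.39 to 3.46). Both kept their sign. Bcl2l11 changed sign after quantile normalization (-0.0558), and Bid after quantile normalization (-0.17) and trimmed-mean scaling (-0.0639); the cause was not tested. The replicate numbers were not shown to pair the libraries (r = 0.11 across genes for same-numbered deviations). With the replicate block 3909 rows were higher and 230 lower, with 3 members higher, since Bbc3 also passed (limma adjusted p = 0.00104). Called genes of the survival and effector list numbered 0 to 4 on leaving out 1 library, of the transcription factors 0 to 3, and of the partners 0 to 6. With 2 libraries a group, Bik in the WT libraries lies at the limit of depth.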
